A study of Mus musculus with 6 samples.

Results

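The genes described here build sterols and fatty acids, switch that synthesis on and off, or export sterol. They were chosen by function as 30 gene symbols, and a gene was measured where a probe set of the array carried that symbol alone in the platform annotation. Of the 30 genes, 26 were measured, among 17097 genes in all. Pmvk, Srebf1, Scd2 and Abca1 had no such probe set and were not analysed here. For a gene with several probe sets the brightest one, by its mean over all arrays, stands for the gene.

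The RNA came from 3 WT and 3 Klf3-/- male mice on the FVB/NJ background, aged 12 weeks and kept untreated on chow at 22 °C. KLF3 is a transcriptional repressor of the Krüppel-like factor family, and the Klf3-/- mice were global knockouts, so every cell type of the animal lacked it. From the stromal vascular fraction (SVF) of inguinal subcutaneous (subcut) fat, cells were sorted that carried CD45, CD11b, F4/80 and Siglec-F on their surface and scattered light strongly to the side, the profile of eosinophils, and the RNA of each mouse was hybridised to its own Affymetrix array. Mice of both genotypes were matched for litter. The question the comparison answers is whether these genes differed between WT and Klf3-/- cells.

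Cells make cholesterol from acetyl-CoA through mevalonate and squalene. The transcription factor SREBP-2 drives the genes of this route when membrane sterol runs low, with SCAP escorting the precursor to the Golgi and INSIG proteins holding it back in the endoplasmic reticulum. Fatty acids are built from the same acetyl-CoA by ACLY, acetyl-CoA carboxylase and fatty acid synthase, then lengthened by ELOVL enzymes and desaturated by SCD enzymes. The liver X receptor LXRα, encoded by Nr1h3, senses oxysterols and raises the transporters that pass cholesterol out of macrophages and other cells.

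All levels below are log2 intensities after quantile normalisation between arrays, and a difference is Klf3-/- minus WT on that scale. In the deposited values the array medians ran from 30.3 to 58.7, a 1.94-fold range, and the array of replicate 2 had the highest median in each genotype. The 95th percentile of olfactory receptor probe sets, 5.10, served as background. Only 2 of 8 eosinophil markers lay above it (Prg3 at 5.20 and Ltc4s at 5.13), while Siglecf, Ccr3, Epx, Prg2, Il5ra and Alox15 lay below, and all 10 macrophage markers lay above, with C1qa at 12.05 ± 0.43 in WT and 12.19 ± 0.46 in Klf3-/- (SD, n = 3). Most defining transcripts of the labelled cell type thus lay below background in the mean of the 6 arrays. Of 6 Klf3 probe sets, 5 were higher and 1 was lower in Klf3-/- mice without overlap, and how they lie to the disruption was not analysed here.

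The start of 3 genes of the mevalonate route shows the kind of sequence through which sterol genes are read. The 250 bases before the transcription start are shown for Hmgcs1, the only gene whose window held the sterol regulatory element core, for Idi1, the brightest of the route, and for Mvd, whose genotype difference had the smallest p. They are RefSeq sequences of the GRCm38.p6 assembly, at chr13:119690101-119690350 on the plus strand, chr13:8885356-8885605 on the plus strand and chr8:122443423-122443672 on the minus strand. Capitals mark the sterol regulatory element core TCACNCCAC, which SREBPs bind, and the inverted CCAAT box ATTGG, which the factor NF-Y binds beside it, as CCAAT where it lies on the other strand.
Hmgcs1: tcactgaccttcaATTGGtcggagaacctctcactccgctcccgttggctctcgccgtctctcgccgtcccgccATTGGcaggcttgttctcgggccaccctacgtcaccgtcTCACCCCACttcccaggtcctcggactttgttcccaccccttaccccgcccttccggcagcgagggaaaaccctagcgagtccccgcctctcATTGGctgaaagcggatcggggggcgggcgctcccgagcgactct
Idi1: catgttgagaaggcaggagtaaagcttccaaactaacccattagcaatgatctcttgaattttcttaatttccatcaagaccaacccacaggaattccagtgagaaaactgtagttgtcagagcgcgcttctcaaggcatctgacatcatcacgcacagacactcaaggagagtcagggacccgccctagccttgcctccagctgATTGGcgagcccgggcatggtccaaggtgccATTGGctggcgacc
Mvd: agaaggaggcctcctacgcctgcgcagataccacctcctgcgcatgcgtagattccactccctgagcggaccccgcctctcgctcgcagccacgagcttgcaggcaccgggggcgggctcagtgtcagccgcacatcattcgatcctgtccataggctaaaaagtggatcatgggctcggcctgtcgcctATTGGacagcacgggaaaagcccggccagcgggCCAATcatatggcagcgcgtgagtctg

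The core in Hmgcs1 lay 137 to 129 bases before the start, and its inverted CCAAT boxes began 237, 176 and 45 bases before it. In Idi1 the boxes began 45 and 14 bases, and in Mvd 60 and 27 bases, before the start. RefSeq windows were at hand for 24 of the 30 genes, 31 windows in all, with no entry for Fdps, Fdft1, Sqle, Scd1, Scd2 and Abcg1. Searched on both strands, the inverted CCAAT box was in 19 of the 31 windows (61.3%) and in 33.8% of all 32851 windows of that length, and the sterol element core was in 1 (3.23%) and 1.05%. The CACCC box CNCACCC, the kind of sequence that KLF proteins bind, was in 13 (41.9%) and 27.5%. One of the CACCC matches of Hmgcs1 overlaps its sterol element core. A match is a run of letters and not a measured binding site, and windows of alternative starts of 1 gene can share bases.

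No gene of the set passed the test between genotypes. The 26 genes had limma adjusted p-values of 0.874 to 0.999, and over all 17097 genes 0 were called as well (0% at an adjusted p under 0.05). Log2 differences ran from -1.45 (Nr1h3) to 0.52 (Elovl6), with 10 genes above 0 and 16 below and a median of -0.13, beside a median of -0.0376 over all genes, of which 55.2% were below 0. As deposited, without further normalisation, 14 genes were above 0 and 12 below, with a median of 0.059. At an unadjusted p under 0.05 there were 2 genes lower in Klf3-/-, Mvd and Fdft1, and 0 higher, beside 2.47% and 3.61% of all genes. The genotypes did not overlap in 3 lower genes (Mvd, Fdft1 and Srebf2) and 1 higher gene (Ebp), beside 6.55% and 4.84% of all genes. A per-probe-set analysis of variance also called 0, with 2 genes at an unadjusted p under 0.05 (Mvd and Srebf2), beside 5.37% of all genes. The unadjusted count depended on single arrays: it was 4 without Klf3-/- array 1 (beside 6.94% of all genes in either direction), 1 without WT array 2 (5.96%), WT array 3 (6.38%) or Klf3-/- array 2 (5.45%), and 0 without Klf3-/- array 3 (5.38%), beside 6.09% with all arrays. It was also 0 without further normalisation (3.35%), where no gene of the set was free of overlap either (4.52%).

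**Figure D1:**
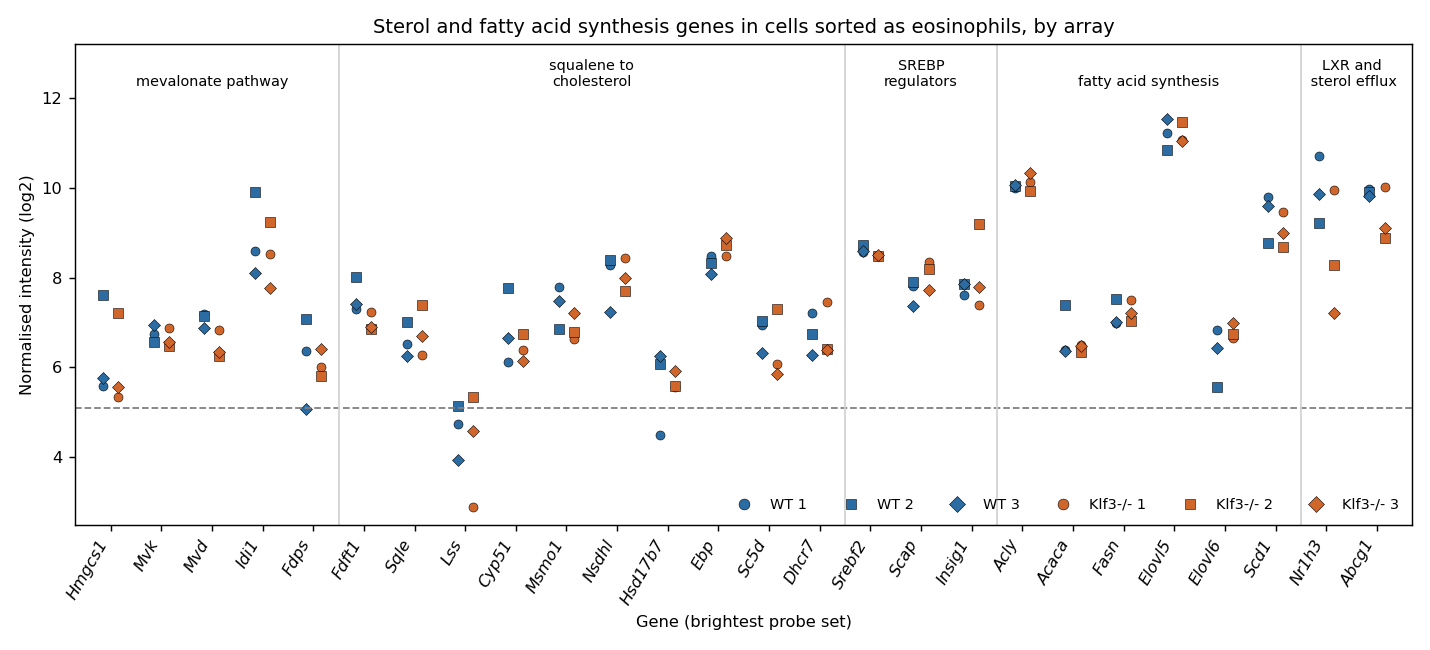
Normalised log2 intensity of the 26 measured genes (horizontal axis, by role), with 1 point per array, WT in blue and Klf3-/- in orange, and circles, squares and diamonds for replicates 1, 2 and 3. The dashed line is the background level of 5.10. In most genes the points of both genotypes interleave, and the squares of replicate 2 stand at the top in both colours for Hmgcs1 and Idi1.

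**Figure D2:**
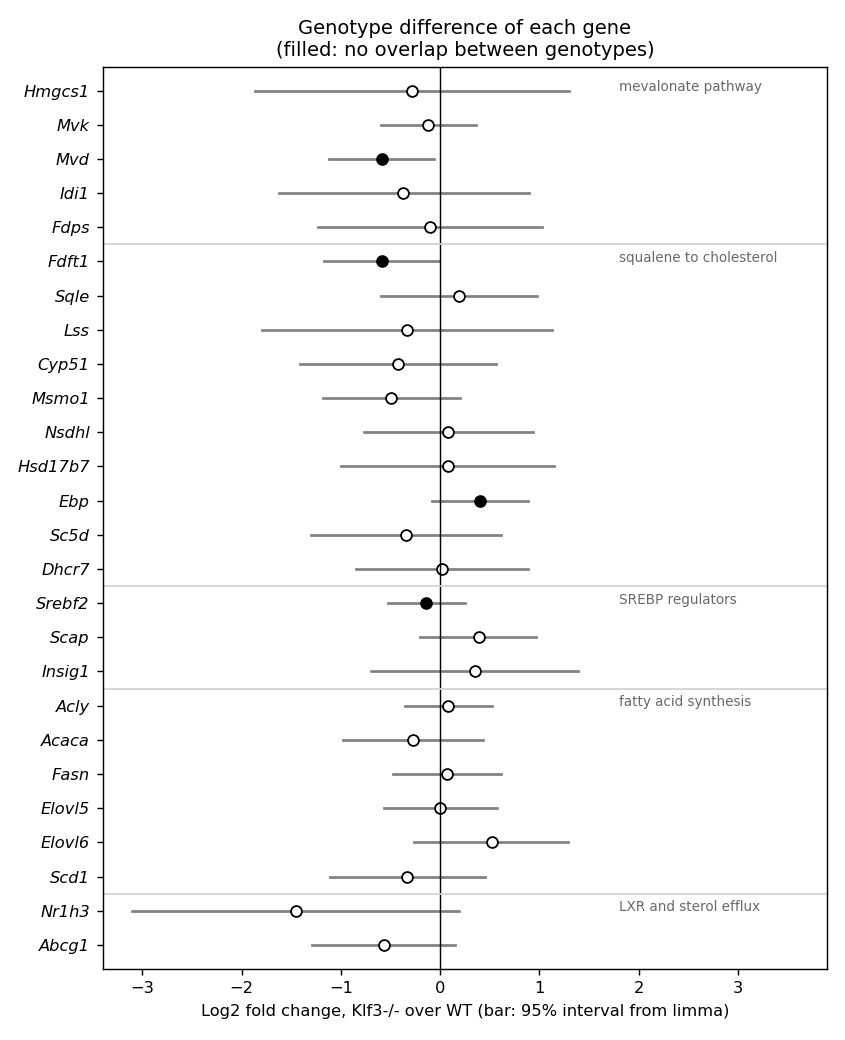
Log2 difference between Klf3-/- and WT for each measured gene, with the 95% interval from limma as a bar and filled points where the 3 values of each genotype did not overlap. All 5 mevalonate genes lie left of 0, where Mvk and Fdps do not stay as deposited (0.13 and 0.049), and the interval of Nr1h3 is the widest, from -3.10 to 0.19.

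The intervals give the sizes of difference the values leave room for. In 11 of the 26 genes the 95% interval lay inside a 2-fold change in either direction. These were Mvk, Sqle, Nsdhl, Ebp, Dhcr7, Srebf2, Scap, Acly, Acaca, Fasn and Elovl5. In the other 15 the interval reached a 2-fold change in at least 1 direction. With the replicate number as a block, 14 genes lay inside a 2-fold change, 10 of them the same as without it. The block narrowed the interval most plainly for Hmgcs1, from -1.86 to 1.30 down to -0.73 to 0.18, and for Idi1, from -1.62 to 0.89 down to -0.89 to 0.16, while that of Acaca then reached past a 2-fold change (-1.01 to 0.47). The smallest p an exact permutation test of 3 against 3 mice can give is 0.1.

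All 5 measured genes of the mevalonate route read lower in Klf3-/- mice, with a median difference of -0.28, although Mvk and Fdps turned positive in the values as deposited (0.13 and 0.049), and none passed the test. Without WT array 2 the median was 0.15, with 3 genes higher and 2 lower. Mvd, the decarboxylase that makes isopentenyl diphosphate, read 7.18, 7.15 and 6.87 in WT mice 1 to 3 and 6.84, 6.25 and 6.35 in Klf3-/- mice 1 to 3. Every Klf3-/- value lay below every WT value, the nearest pair by little. The means were 7.07 ± 0.17 and 6.48 ± 0.31 (SD, n = 3), a difference of -0.59 (SE 0.22, limma adjusted p = 0.874, exact two-sided permutation p = 0.1). In the deposited intensities, before scaling, the WT values were 125, 204 and 74.9 and the Klf3-/- values 126, 112 and 63.9, and they overlapped. A second, dimmer Mvd probe set also read lower, by -0.27 on the log2 scale, with overlap, and the brighter one is marked by the manufacturer as matching several transcripts.

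Idi1, the isomerase that turns isopentenyl into dimethylallyl diphosphate, read 8.60, 9.91 and 8.11 in WT and 8.52, 9.23 and 7.77 in Klf3-/- mice. Within each genotype mouse 2 was highest and mouse 3 lowest, and the genotypes overlapped. The difference was -0.37 (SE 0.53, limma adjusted p = 0.969), and it was negative within each replicate number (-0.076, -0.69 and -0.34). Its second probe set gave -0.67. Hmgcs1, the synthase that makes HMG-CoA, is given in full because its values stood out once seen: 5.59, 7.61 and 5.76 in WT and 5.35, 7.21 and 5.57 in Klf3-/- mice. Its difference of -0.28 (SE 0.67, 95% interval -1.86 to 1.30) was far smaller than the gap between mouse 2 and the other mice of its genotype, which was 1.93 in WT and 1.75 in Klf3-/-. The interval is wide because both genotypes hold that gap. Mvk, the mevalonate kinase, differed by -0.12 (SE 0.20), and Fdps, the farnesyl diphosphate synthase, by -0.10 (SE 0.48), the latter with WT values from 5.08 to 7.07.

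Of the 10 genes from squalene to cholesterol, 5 read higher and 5 lower, with a median of -0.16, and none passed the test. The median was 0.079 as deposited, 0.028 without WT array 2 and 0.017 with dim probe sets left out, so the group as a whole has no settled direction. Fdft1, the squalene synthase that commits farnesyl units to sterol, read 7.31, 8.01 and 7.42 in WT and 7.23, 6.85 and 6.89 in Klf3-/- mice. All Klf3-/- values lay below the WT values, but mice 1 differed by only -0.080. The means were 7.58 ± 0.38 and 6.99 ± 0.21 (SD, n = 3), a difference of -0.59 (SE 0.25, limma adjusted p = 0.901, exact two-sided permutation p = 0.1). Fdft1 was measured by 1 probe set.

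Ebp, the sterol isomerase of the late route and the brightest probe set of this group, went the other way. It read 8.47, 8.33 and 8.07 in WT and 8.48, 8.72 and 8.88 in Klf3-/- mice, so that the lowest Klf3-/- value cleared the highest WT value by a margin far under the spread of either genotype. The means were 8.29 ± 0.21 and 8.69 ± 0.20, a difference of 0.40 (SE 0.20, 95% interval -0.080 to 0.88, limma adjusted p = 0.910). Ebp and Fdft1, late and early on the same route, thus had differences of opposite sign.

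In 3 further genes of this group the probe sets of the same symbol differed in sign. Cyp51, the lanosterol demethylase, read 6.11, 7.77 and 6.66 in WT and 6.38, 6.74 and 6.15 in Klf3-/- mice on its brightest probe set, a difference of -0.42 (SE 0.42). Its other probe sets gave 0.18 and -0.37, and the last of these lay below background. Sc5d, the lathosterol desaturase, read 6.94, 7.03 and 6.32 in WT and 6.08, 7.31 and 5.86 in Klf3-/- mice, a difference of -0.34 (SE 0.41), while its other probe sets gave 0.73 and -0.15. No direction can be given for either gene from these arrays.

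Hsd17b7, a ketoreductase of the demethylation steps, read 4.50, 6.08 and 6.26 in WT and 5.56, 5.58 and 5.92 in Klf3-/- mice, a difference of 0.075 (SE 0.46). Its other probe sets, both below background, gave -0.24 and -0.54. Without WT mouse 1, whose 4.50 lay below the background of 5.10, the brightest probe set gave -0.48. No direction can therefore be given for Hsd17b7. The remaining genes of the group overlapped between genotypes. Msmo1, the methylsterol oxidase, differed by -0.49 (SE 0.29), Sqle, the squalene epoxidase, by 0.19 (SE 0.34), Nsdhl, a dehydrogenase of the demethylation steps, by 0.079 (SE 0.36) and Dhcr7, which makes cholesterol from 7-dehydrocholesterol, by 0.017 (SE 0.37). Lss, the lanosterol synthase, lay below background in the mean of the 6 arrays (4.43), and its difference of -0.33 has no clear base.

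The regulators of SREBP differed in direction among themselves. Srebf2, which encodes SREBP-2, read 8.58, 8.73 and 8.60 in WT and 8.48, 8.49 and 8.51 in Klf3-/- mice. These were the tightest values of the set, and the genotypes did not overlap. The difference was nevertheless small, -0.14 (SE 0.17, 95% interval -0.53 to 0.25, limma adjusted p = 0.961), the second Srebf2 probe set gave 0.23, and without further normalisation the first gave 0.069. No direction can therefore be given for Srebf2.

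Scap, the escort protein, read 7.82, 7.91 and 7.36 in WT and 8.35, 8.18 and 7.72 in Klf3-/- mice. Mouse 3 was lowest in each genotype, and the Klf3-/- mouse was higher within each number (by 0.53, 0.27 and 0.36), although the genotypes overlapped. The difference was 0.39 (SE 0.25, limma adjusted p = 0.924). Insig1, itself a target of SREBP, read 7.62, 7.86 and 7.85 in WT and 7.39, 9.20 and 7.78 in Klf3-/- mice. Klf3-/- mouse 2 alone stood high, and the difference of 0.35 (SE 0.44) became -0.19 without it.

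Of the 6 measured genes of fatty acid synthesis 3 read higher and 3 lower, from -0.33 (Scd1) to 0.52 (Elovl6), with a median difference of 0.033 (0.21 as deposited), and none passed the test. Elovl5, an elongase of polyunsaturated fatty acids and the brightest probe set of the set, read 11.21, 10.84 and 11.52 in WT and 11.06, 11.46 and 11.03 in Klf3-/- mice. Its difference was -0.0036 (SE 0.24, 95% interval -0.57 to 0.57). That probe set is marked by the manufacturer as open to cross-hybridisation. A second Elovl5 probe set averaged 9.63, below the 10.08 of Acly, and gave -0.059. Acly, the ATP citrate lyase that supplies cytosolic acetyl-CoA, differed by 0.084 (SE 0.18), and Fasn, the fatty acid synthase, by 0.070 (SE 0.23, 95% interval -0.47 to 0.61). Acaca, the acetyl-CoA carboxylase, differed by -0.27 (SE 0.30), with WT mouse 2 at 7.38 and the other 5 mice between 6.35 and 6.49.

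Elovl6, the elongase of saturated C16 chains, read 6.84, 5.57 and 6.43 in WT and 6.65, 6.75 and 6.98 in Klf3-/- mice. The Klf3-/- values sat together and WT mouse 2 was low, which gave a difference of 0.52 (SE 0.33, limma adjusted p = 0.923). A second probe set above background gave -0.38 and the dimmest, below it, 0.012. No direction can therefore be given for Elovl6. Scd1, the stearoyl-CoA desaturase, read 9.79, 8.76 and 9.59 in WT and 9.47, 8.69 and 8.99 in Klf3-/- mice, a difference of -0.33 (SE 0.33, limma adjusted p = 0.954). Its second probe set read 7.69, 7.58 and 8.04 in WT and 7.58, 7.24 and 7.15 in Klf3-/- mice, a difference of -0.45 without overlap, although the highest Klf3-/- value met the lowest WT value to 2 decimals. The lipid enzymes were read beside the adipocyte markers, of which 4 of 7 measured lay above background. Their summed level ran from 11.25 to 12.86 in WT and from 11.38 to 12.32 in Klf3-/- mice. Fabp4 averaged 11.72 and made up most of that sum, at 11.71, 11.05 and 12.65 in WT and 11.67, 11.11 and 12.11 in Klf3-/- mice. The sum thus mainly follows that gene. Adipoq, Lep and Pck1 lay below background in the mean, with Adipoq at 7.10 in WT mouse 3. The part of adipocytes in the values was not tested.

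Nr1h3 and Abcg1, both measured genes of the LXR and efflux group, read lower in Klf3-/- mice under each scaling tried (as deposited -1.25 and -0.37), and Nr1h3 had the largest difference of the set. Nr1h3 read 10.70, 9.22 and 9.87 in WT and 9.96, 8.29 and 7.20 in Klf3-/- mice. The order of the mice differed between genotypes apart from mouse 1, highest in both, and Klf3-/- mouse 1 lay above WT mouse 2, so the genotypes overlapped. The means were 9.93 ± 0.74 and 8.48 ± 1.39 (SD, n = 3), a 2.73-fold higher mean in WT (difference -1.45, SE 0.70, limma adjusted p = 0.910, exact two-sided permutation p = 0.3). Within replicate numbers the differences were -0.74, -0.93 and -2.67, and leaving out 1 array at a time gave -0.80 (without Klf3-/- mouse 3) to -2.20 (without Klf3-/- mouse 1, where the genotypes no longer overlapped and the limma adjusted p was 0.589). With the replicate number as a block, the limma adjusted p was 0.664. The deposited intensities were 1440, 935 and 569 in WT and 1050, 486 and 111 in Klf3-/- mice.

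Abcg1, a transporter that passes cholesterol to high-density lipoprotein and a textbook LXR target, read 9.97, 9.91 and 9.82 in WT and 10.01, 8.89 and 9.10 in Klf3-/- mice. Mice 2 and 3 of Klf3-/- stood below all WT mice, and mouse 1 stood above them. The means were 9.90 ± 0.080 and 9.33 ± 0.60, a difference of -0.57 (SE 0.31, limma adjusted p = 0.910). Without Klf3-/- mouse 1 it was -0.91 without overlap (limma adjusted p = 0.584), and without Klf3-/- mouse 2 it was -0.35. A second Abcg1 probe set read 7.71, 7.43 and 8.05 in WT and 7.39, 6.84 and 7.14 in Klf3-/- mice, without overlap and with a difference of -0.61 (SE 0.24, limma adjusted p = 0.886). Thus Klf3-/- mice 2 and 3 were the lowest 2 mice on both probe sets of Abcg1 and in Nr1h3.

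Markers of other cells that the sort could hold are given beside these genes. Of 6 measured dendritic cell markers, all above background, 5 read lower in Klf3-/- mice, with a median of -0.76, and their summed level ran from 10.92 to 11.88 in WT and from 10.41 to 10.84 in Klf3-/- mice. Itgax, the CD11c chain, differed by -1.69 and the class II gene H2-Eb1 by -0.79, and neither passed the adjusted threshold. Both were lower without overlap, beside 6.55% of all genes. Of 10 macrophage markers 8 read higher, with a median of 0.14 and a summed level of 13.46 to 14.31 in WT and 13.82 to 14.80 in Klf3-/- mice. All 10 stromal markers read higher, with a median of 0.96, 5 of them without overlap, beside 4.84% of all genes. Their summed level was 13.55 to 14.36 in WT and 14.34 to 14.96 in Klf3-/- mice. All 8 endothelial markers read lower, with a median of -0.53, none without overlap, and a summed level of 10.43 to 12.65 in WT and 9.90 to 12.17 in Klf3-/- mice. The marker lists are given under the main scaling only. The part of these cells in the values of Nr1h3 and Abcg1 was not tested, and in sorted pools such as these, fewer cells of a type and less RNA per cell cannot be told apart.

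**Figure D3:**
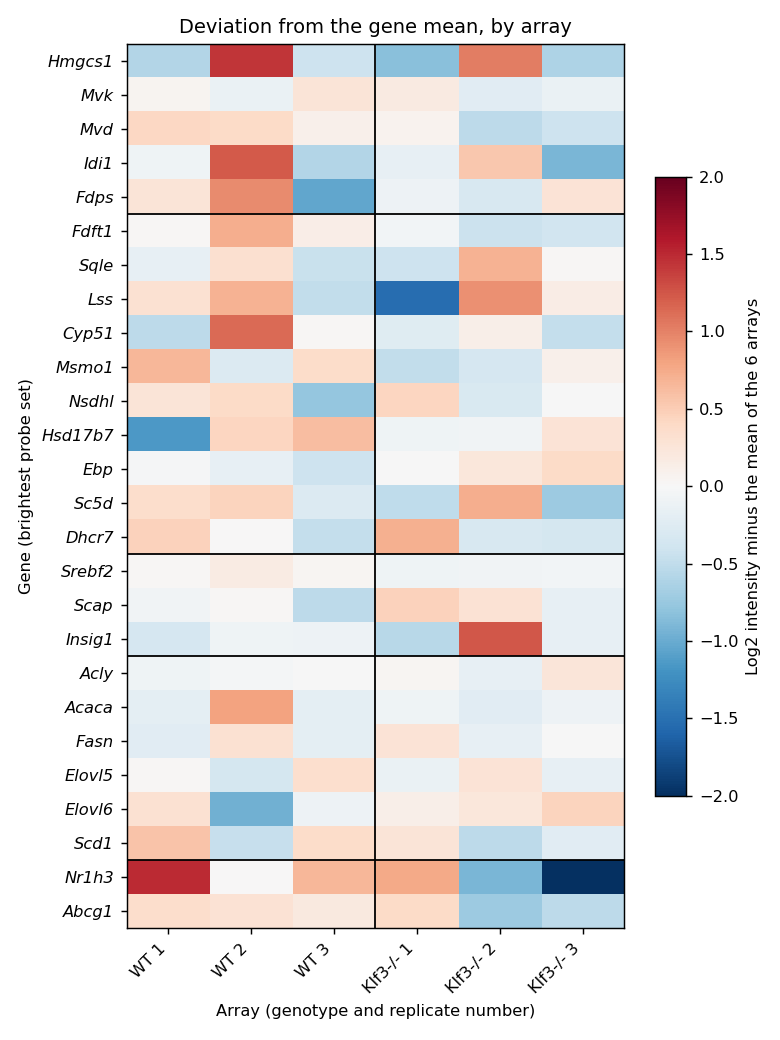
Log2 intensity of each measured gene minus its mean over the 6 arrays (colour, red above and blue below the mean), with genes in rows by role and arrays in columns by genotype and replicate number. The rows of Hmgcs1, Idi1, Sqle, Lss, Cyp51 and Sc5d are red in both WT 2 and Klf3-/- 2, other sterol genes such as Mvd and Fdft1 are blue in Klf3-/- 2, and Nr1h3 runs from red in WT 1 to its deepest blue in Klf3-/- 3.

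The sterol enzymes varied between mice of 1 genotype, though no more than some lists of cell markers. The median SD within genotype ran from 0.32 (eosinophil) to 1.31 (endothelial) over the marker lists and was 0.34 over 9 other sterol genes. It was 0.54 over the 15 measured sterol enzymes, 0.35 over the 6 fatty acid genes and 0.47 over all 26. Beside it, the median difference between genotypes was -0.28 over the sterol enzymes, of which 10 read lower and 5 higher. As deposited it was -0.059, with 8 lower and 7 higher, and without WT array 2 it was 0.037, with 6 lower and 9 higher. Part of this variation ran along the replicate number, a pattern noticed after the values were seen. In 7 of the 26 genes (26.9%), mouse 2 was highest in both genotypes, beside 10.9% of all genes. These were the sterol enzymes Hmgcs1, Idi1, Sqle, Lss, Cyp51 and Sc5d and the SREBP regulator Insig1. Of these, Lss lay below background (4.43). In WT, mouse 2 led by little in Insig1 (7.86 beside 7.85) and in Sc5d (7.03 beside 6.94). The second Sc5d probe set lacked the pattern (6.61, 6.37 and 5.21 in WT), while the third had it. Mouse 1 was highest in both genotypes in 5 of the 26 genes (19.2%, beside 11.5% of all genes) and mouse 3 in 2 (7.69%, beside 18.3%).

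In the 7 genes the gap between mouse 2 and the mean of the other mice of its genotype varied. It was 1.93 and 1.75 in Hmgcs1 (WT and Klf3-/-), 1.56 and 1.08 in Idi1, and 1.38 and 0.48 in Cyp51. In Insig1 it was 0.12 in WT and 1.61 in Klf3-/- mice. Mvd, Fdft1 and Fdps did not have the pattern, since Klf3-/- mouse 2 was not the highest there. None of the 6 fatty acid genes had it.

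Outside the chosen 30 genes, the pattern was found in 4 of 9 other sterol genes on the array (44.4%, beside 10.9% of all genes). The gaps of mouse 2 in WT and Klf3-/- were 0.39 and 0.88 in Tm7sf2 and 0.20 and 0.41 in Stard4. They were 0.84 and 0.27 in Mbtps2 and only 0.12 and 0.053 in Npc2. In Klf3-/- mice, Mbtps2 read 6.82 in mouse 2 and 6.79 in mouse 3. Among 14 other fatty acid genes the pattern was found in 0, and among 7 other genes linked to LXR in 0. Among the cell markers it was found in 2 of 6 dendritic cell genes, Flt3 and Xcr1, and in 2 of 10 stromal genes, beside 10.9% of all genes. It was also found in 1 of 8 eosinophil genes, Epx, which lay below background. It was found in 0 of 10 macrophage, 0 of 8 endothelial and 0 of 7 adipocyte genes. Flt3 read 7.52, 10.14 and 7.72 in WT and 7.81, 8.0 and 7.37 in Klf3-/- mice. Endothelial markers went the other way, at a median of -0.92 from their mean in WT mouse 2 and -1.72 in Klf3-/- mouse 2. The part of these cells, of the litter or of the array scale in the replicate pattern was not tested.

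Without both arrays of replicate 2, a setting chosen after the values were seen, 12 of the 26 genes had no overlap between the remaining 2 mice of each genotype, 8 lower and 4 higher, beside 20.6% and 14.9% of all genes. At an unadjusted p under 0.05 there were 0, beside 5.11% of all genes in either direction, and no gene was called. Hmgcs1 and Sc5d joined the lower genes there. In Hmgcs1 the margin was small, with WT mouse 1 at 5.59 and Klf3-/- mouse 3 at 5.57 on the scale of all arrays. The second Sc5d probe set gave 0.73 with all mice, so no direction can be given for Sc5d.

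**Figure D4:**
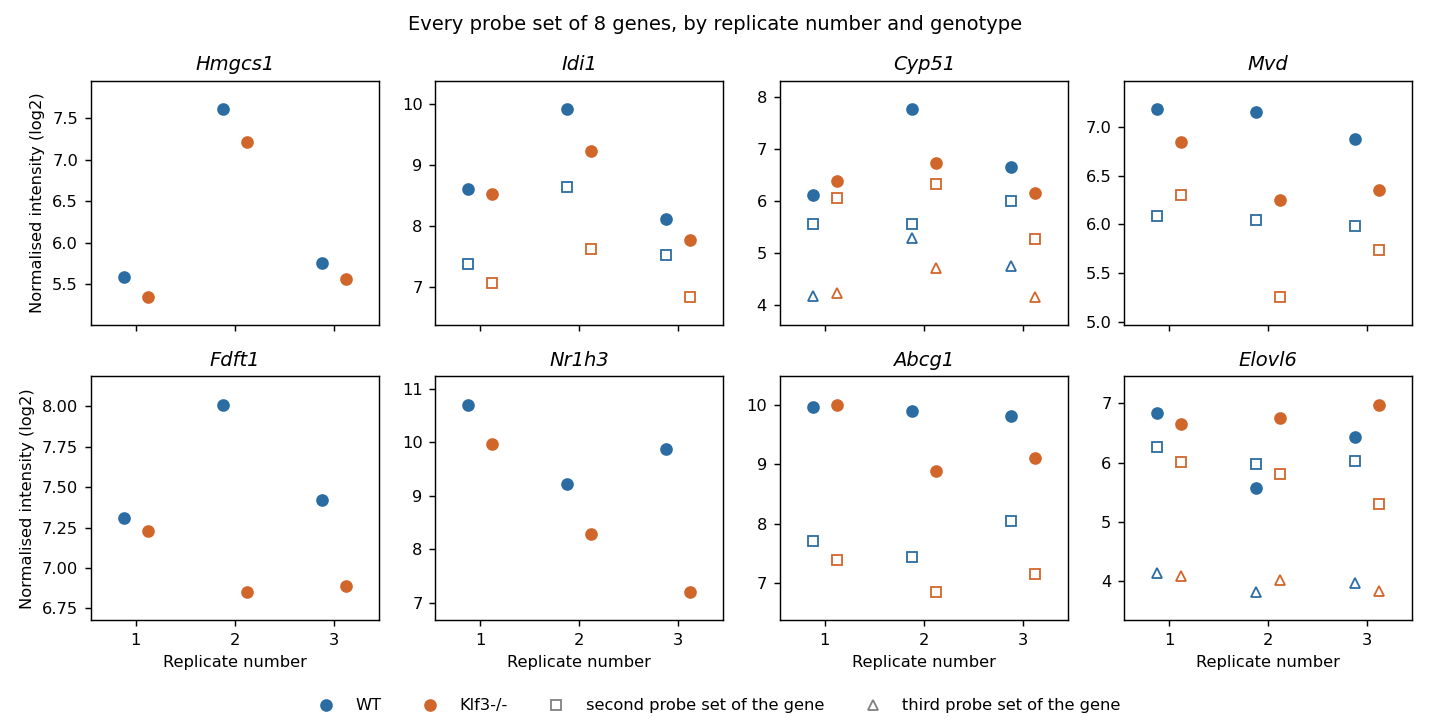
Normalised log2 intensity of every probe set of 8 genes by replicate number, WT in blue and Klf3-/- in orange, with filled circles for the brightest probe set and open squares and triangles for the others. Hmgcs1 and Idi1 peak at replicate 2 in both genotypes, both Abcg1 probe sets are lower in Klf3-/- at replicates 2 and 3, and the genotype differences of the upper 2 Elovl6 probe sets have opposite signs at replicates 2 and 3.

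Further genes of the same pathways were taken from lists written by function. Of 14 other genes of sterol synthesis and uptake, 9 were measured, 5 higher and 4 lower, with a median of 0.039 and 0 called. Npc1, which releases cholesterol from lysosomes, read 9.70 ± 0.27 in WT and 9.12 ± 0.42 in Klf3-/- mice (difference -0.58, SE 0.27, limma adjusted p = 0.910). Mbtps2, the protease that makes the last cut in SREBP, differed by 0.39 (SE 0.31), and Stard4, a carrier of cholesterol in the cytosol, by -0.21 (SE 0.20).

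Of 14 other fatty acid genes, all measured, 6 were higher and 8 lower, with a median of -0.069 and 0 called. Me1, the malic enzyme that supplies NADPH for fatty acid synthesis, read 6.30, 6.81 and 6.18 in WT and 7.38, 7.0 and 7.67 in Klf3-/- mice. All Klf3-/- values lay above the WT values, with means of 6.43 ± 0.33 and 7.35 ± 0.34 (SD, n = 3) and a difference of 0.92 (SE 0.26, limma adjusted p = 0.849). It was the only gene of this list at an unadjusted p under 0.05. Elovl7, an elongase, differed by 1.20 (SE 0.52), and Acss2, which makes acetyl-CoA from acetate, by -0.44 (SE 0.23), both with overlap.

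Of 9 other genes linked to LXR, not all of them its targets, 7 were measured, 3 higher and 4 lower, with a median of -0.0040 and 0 called. Pltp, the phospholipid transfer protein, read 9.99 ± 0.44 in WT and 10.84 ± 0.68 in Klf3-/- mice (difference 0.85, SE 0.38, limma adjusted p = 0.910). Lpl, the lipoprotein lipase, differed by 0.79 (SE 0.41), with Klf3-/- mouse 2 at 12.30, and Abcg4, a sterol transporter, by -0.16 (SE 0.17). These differences did not share the sign of Nr1h3 and Abcg1 throughout, and none passed the test.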

How the data were processed

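RNA of cells sorted as eosinophils was amplified and hybridised to Affymetrix HT MG-430PM arrays, 1 mouse per array. The authors used Partek Genomics Suite and deposited 1 linear intensity per probe set. A legend of the study names RMA, with no steps stated in the sources used here. The deposited intensities of 45037 probe sets were taken to log2. Quantile normalisation between arrays followed, since the array medians differed. Probe sets were named through the platform annotation, in which 28898 had 1 symbol, 551 several and 15588 none. A probe set with several symbols also names Srebf2 and was not used. Over 44 olfactory receptor probe sets, the 95th percentile of mean levels (34.2 on the linear scale) was taken as background.

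Genotype was fitted with limma 3.58.1 in R 4.3.3 (lmFit and eBayes), with Benjamini-Hochberg adjustment over all probe sets and a threshold of 0.05. The script was tested on simulated data. The study's methods name a two-way ANOVA without naming its second factor. The number of arrays limits the precision, and p-values measure the spread between 3 mice a genotype. The labels call the mice litter-matched. Arrays of 1 number deviated together from their genotype means (r = 0.17, 0.23 and 0.21 for numbers 1 to 3). The numbers were therefore taken to pair the mice, and a fit with the number as a block was an alternative. Values of -0.18 to -0.01 between numbers add no separate support, since deviations from a genotype mean cancel out. Array medians also ran along the number, highest in replicate 2 (56.5 and 58.7) and lowest in replicate 3 (30.3 and 35.4). Whether the numbers stand for litters was not tested. The genes, lists and tests were chosen with earlier results of these data known. Per-array values are given, in each role group, for the 2 genes with the smallest p and the gene with the highest mean (SREBP and LXR groups: all), for genes whose probe sets differ in sign, and otherwise where the text says so or a single array is singled out. From each other list the 3 genes with the smallest p are named. Alternatives were other scalings, variance models and filters, other choices of probe set and leaving out arrays.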

Additional observations from a re-analysis of the deposited data

How the results depend on the processing

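No gene of the set was called under any of the 18 alternatives, of which 3 (leaving out both arrays of a replicate number) were chosen after seeing the data. Of 467 gene values under the alternatives, 422 kept their sign. That count includes settings that left the differences themselves unchanged, so that no sign could change there. These were the replicate block, trend and robust fitting, the analysis of variance and the fit on 1 probe set per gene. The sign held under every alternative for 9 genes (Mvd, Fdft1, Msmo1, Ebp, Scap, Elovl6, Scd1, Nr1h3 and Abcg1) and changed under at least 1 for the other 17. Elovl6 fell as low as 0.049, and its second probe set above background gave -0.38, so no direction can be given for that gene. Srebf2 turned from -0.14 to 0.069 as deposited and to 0.045 with the mean of all its probe sets.

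The 2 genes at an unadjusted p under 0.05 became 0 as deposited (beside 3.35% of all genes) and 0 after median centring (5.83%). The count was also 0 with trend and robust fitting (5.78%) and with dim probe sets left out (6.44%). It was 1 (Fdft1) with cross-hybridising probe sets left out (6.11%). The 4 genes without overlap became 0 as deposited (beside 4.52% of all genes) and 0 after median centring (11.8%). As deposited, where the median of all probe sets moved from -0.0318 to 0.128, the median difference was 0.059 over the set, 0.59 for SREBP regulators and 0.21 for fatty acid genes. With the replicate number as a block, 2 genes (Mvd and Nr1h3) were at an unadjusted p under 0.05, beside 7.94% of all genes. With it 0 were called, so the block changed no call.

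Leaving out 1 array at a time gave 0 to 4 genes at an unadjusted p under 0.05, 4 to 7 without overlap (beside 4.76% to 6.94% and 19.1% to 23.3% of all genes), and medians of -0.26 to 0.048 over the set (0.048 without WT array 2), -0.66 to 0.15 for the mevalonate route, -0.37 to 0.028 from squalene to cholesterol, -0.14 to 0.52 for SREBP regulators (-0.14 without Klf3-/- array 2), -0.0086 to 0.072 for fatty acid genes and -1.56 to -0.63 for LXR and efflux. Leaving out both arrays of replicate 1, 2 or 3 gave 4, 0 and 0 genes at an unadjusted p under 0.05 (beside 4.86%, 5.11% and 5.24% of all genes) and 9, 12 and 7 without overlap (beside 31.2%, 35.5% and 33.7%), and a SREBP regulator median of -0.091 without replicate 2. The cause of these shifts was not tested.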
